A study of Mus musculus with 4 samples.

Results

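The facilitative glucose transporters are the Slc2a (GLUT) family of membrane carriers, and 10 of its genes were described here in the mouse beta cell line Beta-TC-6, which makes insulin, out of 22180 genes measured. A gene was a member if a probe set carried its symbol alone, and where a gene had several such probe sets that with the highest mean of its 4 values was used. The set was drawn up because Slc2a2 was known to be lower and Slc2a1 higher in this comparison. The differences between the groups are therefore given as a description, with no test, and none of them supports another.

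RNA was hybridised to Affymetrix Mouse Gene 2.1 ST arrays. In 2 arrays the cells had received siRNA against NF90, a double-stranded RNA-binding protein (siNF90), and in 2 a negative control siRNA (siNTC). All cells were grown in high-glucose medium with serum, and both siRNAs were delivered with a lipid reagent. Several duplexes against NF90 were mixed, the line is a single transformed line, and the labels do not state separate cultures for the arrays. The spread between them may thus be technical, and with it every SE and p-value. The level of NF90 itself is not reported here. Ilf2, which encodes its partner NF45, was at 6.52 and 6.36 in siNTC against 6.21 and 6.11 in siNF90 (log2). Its groups did not overlap, with siNF90 lower (17.9% of all genes), at a difference of -0.28 ± 0.13 (SE). The adjusted p was 0.527 (limma), in a fit that no gene passed.

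Most members of the family move hexoses down a concentration gradient without an energy source. In rodent beta cells GLUT2, the product of Slc2a2, is the main carrier at the plasma membrane. It has a low affinity and a high capacity, so that glucose inside the cell follows glucose outside and glucokinase sets the rate of its use. GLUT1, the product of Slc2a1, has a higher affinity, is found in most dividing and cultured cells, and is the form often seen in transformed cells and under low oxygen.

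The Slc2a2 transcript was lower and the Slc2a1 transcript higher on both siNF90 arrays than on both siNTC arrays. Because their differences were opposite, the 250 bases before the annotated start of each gene are shown, from RefSeq (GRCm38.p6, plus strand, 5′ to 3′). Capitals mark matches on either strand to 4 motifs. The GC box of Sp factors was searched as GGGCGG and held by 32.7% of 32851 windows of that length over all genes. The CCAAT box was held by 33.8% of them. The core of hypoxia response elements was searched as ACGTG and held by 16.6%. The core of homeodomain sites was searched as TAAT and held by 54.9%. The Slc2a2 window is chr3:28697653-28697902 and the Slc2a1 window chr4:119108495-119108744.
Slc2a2: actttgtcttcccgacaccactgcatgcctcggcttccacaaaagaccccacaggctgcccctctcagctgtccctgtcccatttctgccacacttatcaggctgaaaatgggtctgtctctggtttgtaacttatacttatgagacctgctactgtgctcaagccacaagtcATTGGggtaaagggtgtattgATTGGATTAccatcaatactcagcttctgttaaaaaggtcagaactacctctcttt
Slc2a1: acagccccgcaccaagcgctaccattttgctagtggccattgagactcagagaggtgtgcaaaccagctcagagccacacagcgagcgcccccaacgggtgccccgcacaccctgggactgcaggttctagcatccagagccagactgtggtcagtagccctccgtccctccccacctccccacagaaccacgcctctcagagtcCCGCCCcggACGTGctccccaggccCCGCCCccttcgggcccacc
The Slc2a2 window held 2 CCAAT boxes, which begin 77 and 56 bases before the start, and 1 homeodomain core at 51 bases, next to the second CCAAT box and sharing no base with it. It held no GC box or hypoxia core. The Slc2a1 window held 2 GC boxes, at 45 and 20 bases, with 1 hypoxia core between them at 36 bases, and neither of the other motifs. Its GC content was 66.4%, against 47.2% for Slc2a2 and a median of 52.4% over all windows. Windows were found for 8 of the 10 members. Of these 8 only that of Slc2a1 held the hypoxia core, which 16.6% of all windows held. The other motifs were shared within the family. The Slc2a5 window held 3 GC boxes at a GC content of 66.4%, and Slc2a5 differed by -0.005. The windows of Slc2a6, Slc2a10 and Slc2a13 held GC boxes too. That of Slc2a8 held 4 CCAAT boxes and 1 homeodomain core. A link of these motifs to the differences was not tested. The arrays measured transcript levels, and no binding at these letters was measured.

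Slc2a2 (probe set 17396479) stood at 6 and 5.80 on the siNTC arrays and at 4.78 and 4.86 on the siNF90 arrays (log2). The groups lay apart by 0.94, while the arrays within a group differed by 0.20 and 0.08. The mean difference was -1.08 ± 0.13 (log2, SE of the fit, n = 2 arrays each), which is 2.11-fold lower in siNF90. Each of the 4 pairings of a siNF90 with a siNTC array gave a difference between -1.22 and -0.94. Among all genes 22 were at least 2-fold lower (0.0992%), and Slc2a2 was the 16th from the lowest difference. Of 2078 genes whose mean lay within 0.5 of that of Slc2a2, none other was lower by as much.

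Slc2a1 (probe set 17417844) stood at 5.96 and 6.05 on the siNTC arrays and at 6.49 and 6.38 on the siNF90 arrays. Both siNF90 arrays were above both siNTC arrays, by at least 0.33, with arrays of a group 0.09 and 0.11 apart. The mean difference was 0.43 ± 0.12 (log2, SE of the fit, n = 2 each), or 1.35-fold. It was smaller than that of Slc2a2, and 825th from the highest among all genes. Among 1682 genes with a mean within 0.5 of its own, 48 were higher by at least this much, Slc2a1 included. Slc2a1 was the member with a second probe set (17429307), which read 0.85 and 1.17 in siNTC against 1.43 and 1.02 in siNF90. These values lie below the median level of 1.65 to 1.68 of the arrays, and the groups overlapped. With the mean of both probe sets the Slc2a1 difference was 0.32.

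**Figure D1:**
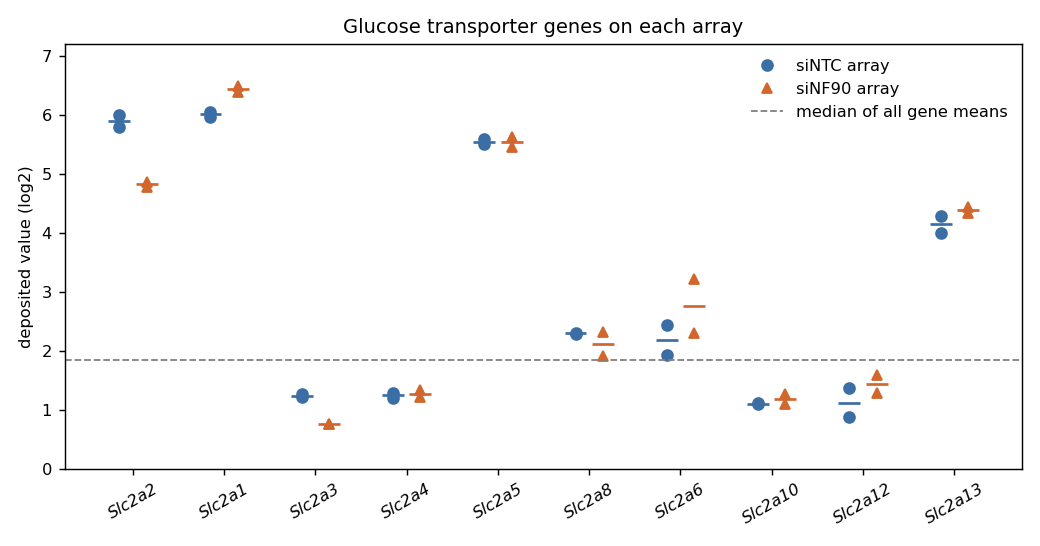
Deposited log2 values of the 10 transporter genes on the 2 siNTC (circles) and 2 siNF90 arrays (triangles), with bars at the group means and a dashed line at the median of all gene means. Slc2a2 sits near 5.90 in siNTC against 4.82 in siNF90, and heights are not comparable between genes because each probe set has its own response.

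Within an array the log2 value of Slc2a2 minus that of Slc2a1 was compared between the groups, which cancels any shift of the whole array. Set against its siNTC mean, this quantity was 0.145 and -0.145 on the siNTC arrays and -1.61 and -1.42 on the siNF90 arrays. The groups lay apart by 1.27. The mean difference was -1.51, with an SD of 0.21 in siNTC against 0.13 in siNF90, so that the ratio of Slc2a2 to Slc2a1 signal was 2.85-fold lower in siNF90. This describes unequal change of both transcripts and not which carrier was the more abundant, since the levels of different probe sets cannot be compared.

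The other carriers of glucose with a high affinity were low on the arrays. Slc2a3, the neuronal form GLUT3, read 1.27 and 1.21 in siNTC against 0.76 on both siNF90 arrays. The groups did not overlap, at a difference of -0.48 ± 0.12 (log2, SE, n = 2 each). All 4 values lie below the median of all gene means (1.845), and the table has no measure of background, so no fold is given. Slc2a4, the insulin-responsive GLUT4 of muscle and fat, read 1.20 and 1.29 against 1.34 and 1.21. Its difference was 0.03 ± 0.12, its groups overlapped, and it too lay under the median level.

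Slc2a5, the fructose carrier GLUT5, stood well above the median level on every array, at 5.59 and 5.50 in siNTC against 5.45 and 5.63 in siNF90. The groups overlapped and the difference was -0.005 ± 0.13 (log2, SE, n = 2 each). The arrays of siNF90 lay on either side of those of siNTC. The difference was no larger than the spread between arrays.

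The carriers of intracellular membranes differed little or varied within a group. Slc2a8, which encodes GLUT8, a carrier held inside the cell, read 2.30 and 2.29 in siNTC against 2.31 and 1.91 in siNF90. One siNF90 array lay with the siNTC arrays, and without the second siNF90 array the difference of -0.185 ± 0.16 was 0.015. Slc2a6 (GLUT6) read 2.43 and 1.93 in siNTC against 3.21 and 2.30 in siNF90. Its difference of 0.57 ± 0.32 rested on the first siNF90 array, since it was 0.12 without that array and 1.03 without the second. The groups of Slc2a6 overlapped.

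Slc2a10 (GLUT10) read 1.12 and 1.09 in siNTC against 1.26 and 1.09 in siNF90, a difference of 0.07 ± 0.13. Slc2a12 (GLUT12) read 1.37 and 0.87 in siNTC against 1.28 and 1.59 in siNF90, a difference of 0.31 ± 0.21 that was 0.065 without the second siNTC array and 0.56 without the first. Both genes lay below the median level on every array, and the groups of both overlapped. Slc2a13, the proton-linked myo-inositol carrier HMIT of the same family, read 4 and 4.29 in siNTC against 4.44 and 4.34 in siNF90. Its groups lay apart by 0.05 only, and its difference of 0.25 ± 0.15 was 0.10 without the first siNTC array and 0.39 without the second.

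Over the 10 members, 6 lay at or above the median gene level in a group and 4 did not. The groups did not overlap in 4 members, Slc2a1 and Slc2a13 with siNF90 higher and Slc2a2 and Slc2a3 with siNF90 lower. Among all genes 39.8% did not overlap (21.9% with siNF90 higher and 17.9% with siNF90 lower), with 48.1% among genes at or above the median level and 30.9% below it. The choice of the members used this comparison, so nothing is read from their count. By the mean 6 members were higher and 4 lower, where 53.6% of all genes were higher. The median difference of the members was 0.05, beside 0.015 over all genes. No gene of the 22180 passed limma's test at an adjusted p under 0.05 (0%), where 2281 had an unadjusted p under 0.05 (10.3%). With a trend in the variance prior, which lets the spread depend on the level, 101 passed (0.455%).

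**Figure D2:**
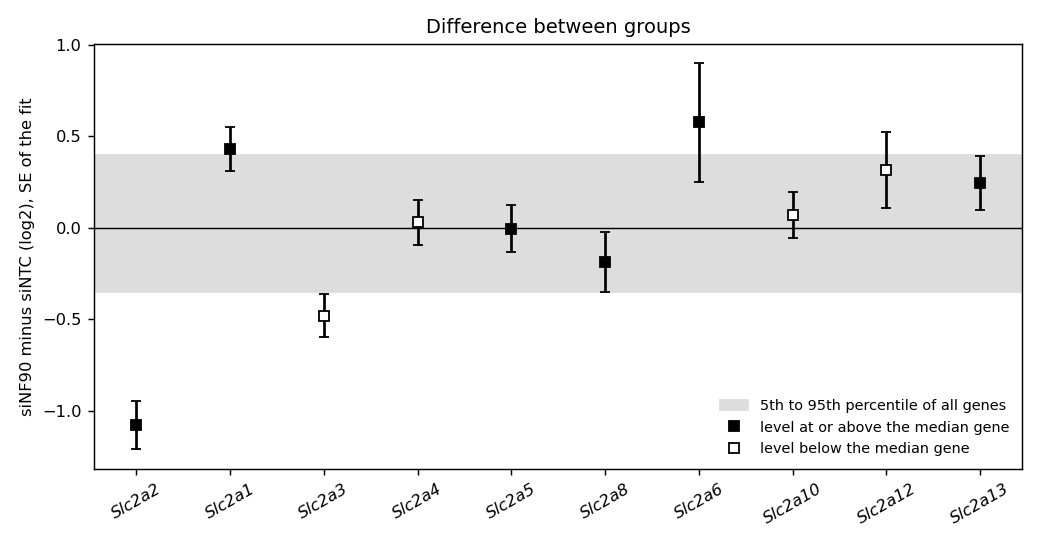
Difference siNF90 minus siNTC (log2) of each transporter gene with the standard error of the fit, over a grey band from the 5th to the 95th percentile of all genes (-0.35 to 0.40). Slc2a2 at -1.08 and Slc2a3 at -0.48 lie below the band, Slc2a1 at 0.43 and Slc2a6 above it, and open squares mark genes whose level is below the median gene.

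**Figure D3:**
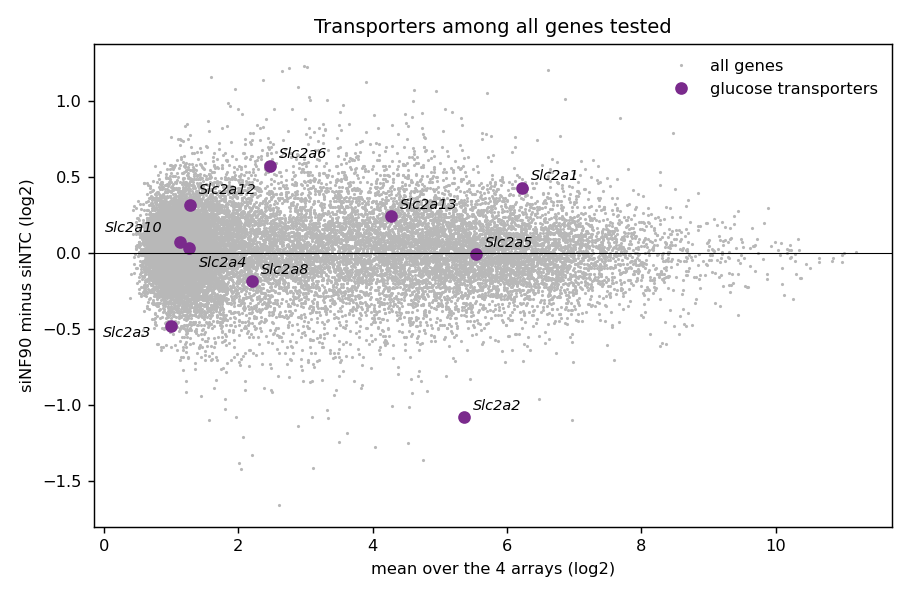
Each of the 22180 genes (grey) by its mean over the 4 arrays and its difference between the groups, both log2, with the 10 transporters in purple. Slc2a2 lies at a difference of -1.08 and Slc2a5 at -0.005. Horizontal positions are not comparable between genes.

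The genes that flank both transporters were read for a difference of the same kind, and were chosen by position in RefSeq. The long noncoding RNA 1700112D23Rik overlaps Slc2a2 and read 0.85 and 1.28 in siNTC against 1.33 and 1.36 in siNF90, below the median level. The nearest measured genes before Slc2a2, Pld1 (a phospholipase) and Tnik (a kinase), differed by 0.02 ± 0.14 and 0.32 ± 0.15, and those after it, Eif5a2 (a translation factor) and Rpl22l1 (a ribosomal protein), by 0.245 ± 0.13 and 0.56 ± 0.15. By the mean all 5 were higher in siNF90, as 53.6% of all genes were. In 4 of them, all but Pld1, the groups did not overlap (21.9% of all genes with siNF90 higher). Rpl22l1 had a mean of 1.48 in siNTC, below the median level, and 2.04 in siNF90. Without the second siNF90 array Tnik differed by 0.155 and Eif5a2 by 0.165, and without the first siNTC array 1700112D23Rik by 0.065 and Eif5a2 by 0.16. Around Slc2a1, Zfp691, a zinc finger gene, differed by -0.265 ± 0.15, Ermap by -0.08 ± 0.12, Lao1 by -0.02 ± 0.16 and Gm12866 by 0.025 ± 0.19. Ermap, Lao1 and Gm12866 lay below the median level, and their groups overlapped. The groups of Zfp691 did not, with siNF90 lower (17.9% of all genes), and its difference was -0.115 without the second siNTC array and -0.415 without the first. Gm52706 and Gm12867, which overlap Slc2a1 in RefSeq, were not analysed here.

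The genes with the most similar pattern were found by the root mean square distance between profiles over the 4 arrays, each centred on its own mean, among 11090 genes at or above the median level. Nearest to Slc2a2 were Ap1s3, a clathrin adaptor subunit (distance 0.040, difference -1.005 ± 0.13), Akr1c14, a hydroxysteroid dehydrogenase (0.091), Nemp1, a protein of the nuclear envelope (0.092), Fstl5 (0.094) and Neto1, a partner of neuronal receptors (0.103). Only 4 genes lay within a distance of 0.1 of Slc2a2. Nearest to Slc2a1 were Zfp282 (0.0083), Vamp2, a vesicle SNARE protein (0.0087), Gpr107 (0.014), Ppp2r5b, a phosphatase subunit (0.017), and Med25, a Mediator subunit (0.018). Within 0.1 of Slc2a1 there were 608 genes. A fixed distance takes in more genes around a small difference, since most genes differ little, so these counts follow from the sizes of the differences of Slc2a2 and Slc2a1. A likeness over 4 arrays in 2 groups mostly restates the difference between the groups.

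**Figure D4:**
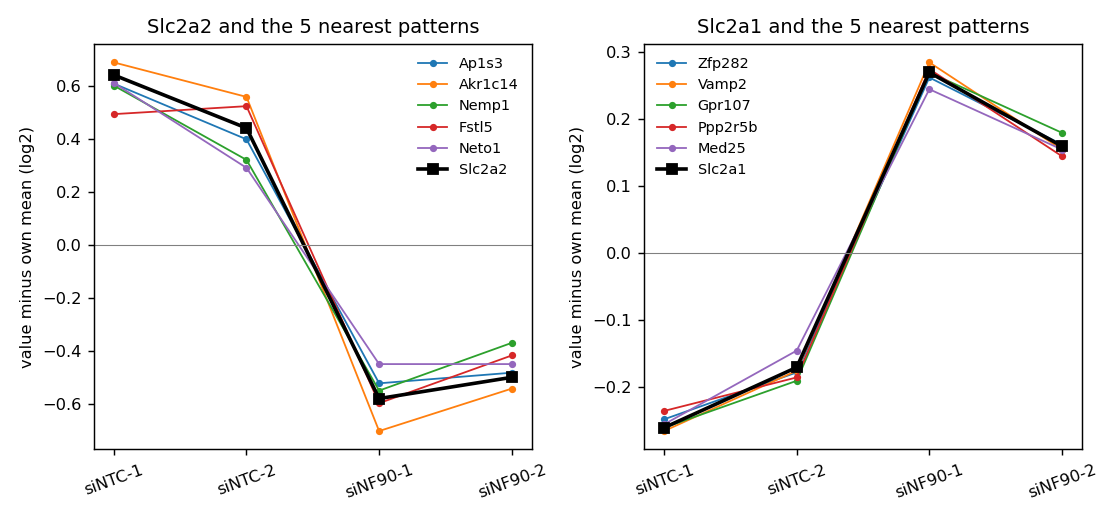
Log2 values minus the gene's own mean on the 4 arrays, for Slc2a2 (left, black) and Slc2a1 (right, black) with the 5 genes of nearest pattern. The 5 genes beside Slc2a2 lie within a distance of 0.103 of it, and those beside Slc2a1 within 0.018, on a narrower vertical scale.

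Around the carriers, 5 lists of genes were read, of which 81 of 89 listed genes were measured. None of the 81 passed the limma fit in either direction, against 0% of all genes. Neither did any with the trend in the prior. At an unadjusted p under 0.05 there were 11 higher and 2 lower, where 5.87% and 4.41% of all genes were. A fit of only the genes with a mean at or above the median level gave 1763 such genes, beside 2281 over all genes. They are thus more frequent at higher levels, and the shares over all genes are not matched to the level of the lists. The groups did not overlap in 46 of the 81 (56.8%), beside 39.8% of all genes. By level, 61 were in the upper part of the genes, where the share over all genes was 48.1%, and 20 below the median, where it was 30.9%.

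Among other carriers of sugars, 9 of 15 measured genes were higher and 6 lower, with a median of 0.035. Mfsd4b4, a relative of the rodent sodium-dependent glucose transporter Naglt1, read 3.59 and 3.68 in siNTC against 2.73 and 2.39 in siNF90, a difference of -1.07 ± 0.15 (limma, adjusted p = 0.357, and 0.0585 with the trend). Its groups lay far apart, and in size its difference was like that of Slc2a2. Its relatives Mfsd4b1, Mfsd4b2 and Mfsd4b5, named after their values were seen, lay below the median level and differed by -0.12, 0.10 and 0.21. Slc50a1, the SWEET sugar carrier of animals, read 6.94 and 6.90 in siNTC against 6.69 and 6.57 in siNF90 (-0.29 ± 0.12, adjusted p = 0.495, limma). Slc2a9, the urate carrier GLUT9 of the family, differed by 0.15 ± 0.20 and Slc45a1 by -0.025 ± 0.17. The groups of both overlapped, and Slc2a9 differed by 0.42 without the first siNTC array and by -0.12 without the second. The sodium-coupled carriers Slc5a1, Slc5a2, Slc5a4a, Slc5a4b, Slc5a9 and Slc5a11, chosen after their values were seen, all lay below the median level.

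Of genes that phosphorylate sugars or reverse that step, 8 of 14 were higher and 6 lower, with a median of 0.0625. Glucokinase was not analysed here because its symbol stood alone on no probe set. Hk1, a hexokinase of high affinity, read 3.49 and 3.43 in siNTC against 3.91 and 3.74 in siNF90 (0.365 ± 0.13, adjusted p = 0.44, limma). Khk, which phosphorylates fructose, differed by 0.255 ± 0.13. The groups of both did not overlap. Over the list this held for 3 genes with siNF90 higher and 2 with siNF90 lower (21.9% and 17.9% of all genes). Pfkfb2 and Pfkfb3, regulators of glycolytic flux, differed by 0.165 ± 0.14 and 0.195 ± 0.16 with overlapping groups, and Hk2, named after its value was seen, lay below the median level. Without the second siNF90 array Khk differed by 0.16, and without the first Pfkfb2 differed by 0.075 and Pfkfb3 by 0.045.

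Of transcription factors linked to Slc2a2 in beta cells or liver, 11 of 17 were higher, 5 lower and 1 had a difference of 0, with a median of 0.185. The groups did not overlap in 9 with siNF90 higher and 3 with siNF90 lower, where 21.9% and 17.9% of all genes did so. At or above the median level, where 14 of the 17 lay, 48.1% of genes did not overlap in either direction. Nkx6-1, a homeodomain factor of beta cells, read 5.68 and 5.69 in siNTC against 6.08 and 6.19 in siNF90 (0.45 ± 0.12, adjusted p = 0.397, limma). Mafa, an activator of insulin transcription, differed by 0.38 ± 0.15 (0.235 without the first siNF90 array), and Hnf4a, a nuclear receptor, by 0.40 ± 0.14. Glis3, a zinc finger factor, read 3.33 and 3.53 in siNTC against 3.08 and 3.14 in siNF90 (-0.32 ± 0.13). The lowest difference among these factors was that of Glis3. Pdx1, chosen after its value was seen because it is known to bind the Slc2a2 promoter, differed by 0.075 ± 0.13. Only transcripts of these factors were measured, and their part in the Slc2a2 difference was not tested.

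Factors linked to Slc2a1 were those of the hypoxia response and of Myc, Mlx and Sp proteins. Of these 10 of 14 were higher and 4 lower, with a median of 0.095. The list pools genes of the hypoxia response whatever their role in it, so its counts give no direction for that response. Egln3, a prolyl hydroxylase that is itself induced by hypoxia, read 5.17 on both siNTC arrays and 5.53 and 5.48 in siNF90 (0.335 ± 0.12, adjusted p = 0.44, limma). Sp1, which binds GC boxes, differed by 0.27 ± 0.16, Mlxip, a glucose-responsive factor, by 0.255 ± 0.13 and Myc by 0.23 ± 0.12. In all 4, named for their large differences, both siNF90 arrays were above both siNTC arrays, and none passed. Over the list the groups did not overlap in 8 with siNF90 higher and 1 with siNF90 lower (21.9% and 17.9% of all genes). At or above the median level, where 13 of the 14 lay, 48.1% of all genes did not overlap in either direction. Sp1 read 3.87 and 4.25 in siNTC against 4.30 and 4.36 in siNF90, and its difference was 0.08 without the first siNTC array and 0.46 without the second. That of Mlxip was 0.165 without the first siNTC array. Other genes of the hypoxia response and Sp3 were named after their values were seen. Hif1a differed by -0.025 ± 0.13, Arnt by -0.145 ± 0.19, Vhl by -0.035 ± 0.13, Egln2 by 0.075 ± 0.16 and Sp3 by 0.065 ± 0.14, with overlapping groups. Epas1 (below the median level), Egln1 and Hif1an were higher without overlap, by 0.185, 0.085 and 0.115. The part of hypoxia or Sp factors in the Slc2a1 difference was not tested.

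Of genes for the traffic and surface retention of glucose carriers, 13 of 21 were higher and 8 lower, with a median of 0.055. Vamp2, the SNARE protein of GLUT4 vesicles and of insulin granules, read 4.50 and 4.59 in siNTC against 5.05 and 4.92 in siNF90 (0.44 ± 0.12, adjusted p = 0.409, limma). Gipc1, a PDZ protein that binds the end of GLUT1, differed by 0.39 ± 0.12, Stxbp3, a syntaxin-binding protein, by 0.38 ± 0.17 and Snap23, a plasma membrane SNARE, by 0.335 ± 0.17. Tbc1d4, named because it tied in size with Snap23, differed by -0.335 ± 0.18, with groups 0.01 apart. Over the list the groups did not overlap in 7 genes with siNF90 higher and 7 with siNF90 lower (21.9% and 17.9% of all genes). All 21 lay at or above the median level, where 48.1% of genes did not overlap in either direction. Snap23 read 5.77 and 6.19 on the siNF90 arrays against 5.63 and 5.66, so the second siNF90 array gave most of it, and without that array it differed by 0.125. Stxbp3 read 4.94 and 4.53 in siNTC against 5.05 and 5.18 in siNF90, and differed by 0.585 without the first siNTC array and by 0.175 without the second. Txnip, an arrestin that promotes uptake of GLUT1 from the surface, picked once its value was known, differed by -0.26 ± 0.13, and Mgat4a, the glycosyltransferase that keeps GLUT2 at the surface and was picked likewise, by 0.06.

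**Figure D5:**
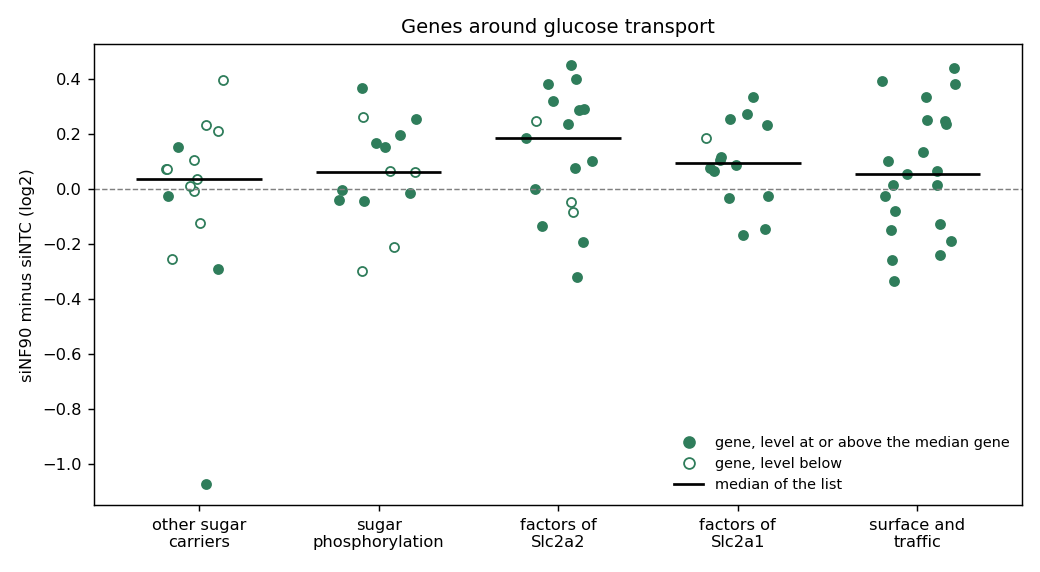
Difference siNF90 minus siNTC (log2) of each measured gene of the 5 lists around glucose transport, with a black bar at each list's median (0.035 to 0.185) and open circles for genes below the median level. The lone point near -1.07 among the other sugar carriers is Mfsd4b4.

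The arrays bore markers of the labelled cell type and also, as given below, of other islet cells. Of 12 beta cell markers 11 lay at or above the median gene level, Ucn3 being the one below it, and their mean on the log2 scale was 7.41 to 7.44 in siNTC and 7.40 to 7.42 in siNF90. Iapp, the amyloid peptide of beta cells, read 10.58 and 10.35 in siNTC against 10.27 and 10.33 in siNF90 (a difference of -0.05 without the first siNTC array), and the incretin receptor gene Glp1r differed by -0.04 ± 0.12. The members of this list went both ways, and none passed the limma fit. Of the 12, 5 were lower and 2 higher in siNF90 without overlap of the groups (17.9% and 21.9% of all genes). Among genes at or above the median level 48.1% did not overlap in either direction. Chosen after their values were seen, Kcnj11, a subunit of the potassium channel that couples glucose to secretion, read 4.43 and 4.23 in siNTC against 3.79 and 3.97 in siNF90 (-0.45 ± 0.14), and Slc30a8, the zinc carrier of insulin granules, 9.64 and 9.74 against 9.50 and 9.43 (-0.225 ± 0.12). Nkx6-1 and Mafa, given above, were the 2 that were higher. Fewer cells with Slc2a2 and less Slc2a2 RNA per cell cannot be told apart in such bulk RNA. Markers of other cells in which members of the family are prominent were low: at or above the median level were 3 of 8 hepatocyte markers (Apoa2 and Hnf4a the highest), 2 of 9 of muscle and fat (Acta1 and Tnnt3), 1 of 7 of neurons and glia (Mbp), 1 of 7 of exocrine and duct cells (Krt7) and 1 of 9 of blood, vessels and stroma (Cd68). The means of these lists lay between 1.25 and 1.79 in siNTC and between 1.28 and 1.87 in siNF90. For hepatocytes, which also use Slc2a2, the mean was 1.70 to 1.79 in siNTC and 1.82 to 1.87 in siNF90, and Alb read 1.19 and 0.95 against 1.24 and 0.96. Cd68, a lysosomal protein of macrophages, read 3.32 and 3.35 in siNTC against 4.44 and 4.48 in siNF90 (adjusted p = 0.342, limma, and 0.0217 with the trend), while Ptprc and Adgre1, which define leukocytes and macrophages, lay below the median level on every array. Of 7 markers of other islet cells 5 lay at or above the median level, with Gcg at 8.50 and 8.75 in siNTC against 8.88 and 8.78 in siNF90 and Sst at 6.86 on both siNTC arrays and 6.72 and 6.54 in siNF90. Alb, Ptprc and Adgre1 were named after their values were seen, as markers that define their cell types. The part of these markers in the transporter differences was not tested.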

How the data were processed

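Transcript levels were measured on 4 Affymetrix arrays, 2 per group. The authors deposited 1 table of log2 values for 41345 probe sets. Per the submitters' processing notes it comes from Transcriptome Analysis Console. The version and the methods of background correction, summarization and normalization were not given in the sources used here. The log base is not stated, and base 2 was taken because values on every array exceed the natural logarithm of the largest scanner reading. No measure of background comes with the table, and the precision is limited by having so few arrays.

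Names came from the platform annotation, in which 23521 probe sets carry 1 symbol, 1814 several (left unnamed) and 16010 none here. With 1 probe set per gene, the one of highest mean, 22180 genes remained. The difference siNF90 minus siNTC was fitted with limma 3.58.1 in R 4.3.3 (eBayes with a constant prior). Tests were two-sided, and p-values were adjusted by Benjamini-Hochberg over the 22180 genes, with a threshold of 0.05. The fit was also run on simulated data with known differences, and how many it recovered is not reported here. Promoter windows came from RefSeq. Members and lists were chosen with earlier results of these data known. Named were, from each list, up to 4 genes by largest difference among those at or above the median level, of markers the 2 highest, and the 5 nearest patterns of Slc2a2 and Slc2a1; other names were chosen by position or are marked, and Ucn3 is named as an exception to a count. Alternatives were a replicate block, a trend or robust prior, quantile normalization or median centring, a filter on level, every probe set, the mean of probe sets and leaving out each array.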

Additional observations from a re-analysis of the deposited data

How the results depend on the processing

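The difference of Slc2a2 lay between -1.18 and -0.98 without each array in turn, that of Slc2a1 between 0.375 and 0.485, and that of Slc2a2 minus Slc2a1 between -1.655 and -1.365. Quantile normalization and median centring moved none of the 10 members by more than the spread between arrays. The mean of both probe sets gave 0.32 for Slc2a1, which averages in a probe set below the median level. The sign of Slc2a4, Slc2a5, Slc2a8 and Slc2a10 turned in at least 1 alternative, and the groups of these 4 overlapped. The count of genes past the threshold was 101 (52 higher and 49 lower) with a trend in the variance prior, and 0 in the other alternatives. No gene of the 5 lists around glucose transport passed in any, while among the cell type markers Cd68 passed with the trend. No label ties a replicate number to a shared culture or day, and same-numbered arrays deviated with a correlation of -0.02 across genes. With the replicate number as a block the Slc2a2 difference was -1.08 and the Slc2a1 difference 0.43 as before, and the count was 0. Leaving out an array leaves 1 array in a group, assumed to vary like the others. Values below the median level cannot be called detected or undetected.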
